A study of Mus musculus with 6 samples.

Results

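The genes of liver carbohydrate handling were followed in whole liver from adult C57BL/6 mice, 3 libraries from wild type mice and 3 from mice in which Igfbp7, the gene for a secreted binding protein of insulin-like growth factors, had been deleted with a Cre-loxP design. The series asks how this gene bears on liver cancer, and the tissue here is adult liver. The sources used here do not give the Cre line, the deleted exons, the age beyond adult, the sex, the feeding state or the hour of collection. Nothing says that the 3 libraries of a genotype came from separate animals, so p-values measure the spread between these libraries. The gene set comprised 32 of the 22609 genes in the count files and was defined by symbol. It holds the enzymes, transporters and regulators of glycolysis, gluconeogenesis and glycogen turnover that serve hepatocytes. All 32 symbols were found, and 31 passed the filter on low counts. The exception, Eno1, is described with the genes that share sequence with copies elsewhere.

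The liver takes up glucose after a meal and releases it between meals. Glycolysis and gluconeogenesis share most of their enzymes, and the direction of flow is set at a few one-way steps, each with its own enzyme for either direction. At the middle step the signal is fructose-2,6-bisphosphate, made and removed by the bifunctional Pfkfb enzymes, which favours glycolysis and restrains gluconeogenesis. Glycogen is the store between these routes, built by glycogen synthase and broken down by glycogen phosphorylase. Several of these genes are known to follow feeding, glucagon, glucocorticoids and the circadian clock.

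The promoters of the genes on which the results turn are shown first, each as the 250 bases before a RefSeq transcription start in build GRCm38.p6, which is not a build named for the count files. The table held 44 such windows for 30 of the 32 genes. A set of 7 motifs was searched on both strands, and matches are in capitals: the E-box CACGTG, the cyclic AMP response element TGACGTCA, the D-box TTATGNAA, the forkhead box O site GTAAACA, the nuclear receptor half-site AGGTCA, the glucocorticoid half-site AGAACA and the site of HNF1. Pfkfb1 was the 1 gene of the set that edgeR called between the genotypes, and of its 4 windows the third was the 1 with a match. G6pc and Slc37a4 encode the catalytic and the transport unit of the same enzyme system. Gckr encodes a regulatory protein of hepatic glucose use, and Pfkfb3 varied most among libraries.
Pfkfb1 window 3, chrX:150589666-150589915, plus strand: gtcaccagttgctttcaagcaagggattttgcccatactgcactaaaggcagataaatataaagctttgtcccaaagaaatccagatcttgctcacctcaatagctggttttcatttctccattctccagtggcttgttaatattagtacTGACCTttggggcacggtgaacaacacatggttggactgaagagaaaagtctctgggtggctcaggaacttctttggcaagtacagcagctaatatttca
G6pc, chr11:101367466-101367715, plus strand: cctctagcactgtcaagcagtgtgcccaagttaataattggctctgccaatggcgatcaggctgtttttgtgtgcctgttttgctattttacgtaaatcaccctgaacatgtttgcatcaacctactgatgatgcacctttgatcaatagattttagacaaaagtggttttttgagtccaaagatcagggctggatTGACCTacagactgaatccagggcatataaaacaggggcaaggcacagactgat
Slc37a4 window 1, chr9:44396696-44396945, plus strand: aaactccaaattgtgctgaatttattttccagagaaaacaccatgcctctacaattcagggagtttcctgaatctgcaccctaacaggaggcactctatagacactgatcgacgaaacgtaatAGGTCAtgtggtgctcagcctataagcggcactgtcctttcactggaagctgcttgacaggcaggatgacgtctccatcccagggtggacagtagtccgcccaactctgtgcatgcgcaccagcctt
Gckr, chr5:31297313-31297562, plus strand: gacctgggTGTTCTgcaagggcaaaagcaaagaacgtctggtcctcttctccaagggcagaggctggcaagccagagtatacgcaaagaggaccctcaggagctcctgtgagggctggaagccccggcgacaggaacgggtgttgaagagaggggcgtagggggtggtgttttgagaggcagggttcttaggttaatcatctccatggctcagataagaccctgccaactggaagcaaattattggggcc
Pfkfb3 window 1, chr2:11502091-11502340, minus strand: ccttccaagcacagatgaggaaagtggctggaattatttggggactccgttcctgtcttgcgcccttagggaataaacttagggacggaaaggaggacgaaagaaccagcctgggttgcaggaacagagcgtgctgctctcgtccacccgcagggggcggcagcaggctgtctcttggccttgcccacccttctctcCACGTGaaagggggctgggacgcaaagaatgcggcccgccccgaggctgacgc
The capitals in Pfkfb1, G6pc and Slc37a4 are nuclear receptor half-sites, which began 100, 54 and 127 bases before the start. The half-site was in 7 of the 44 windows, or 15.9%, and in 14.0% of all 32851 windows of the table. The capitals in Gckr are a glucocorticoid half-site, found in 13.6% of the set's windows and in 16.1% of all windows. Those in Pfkfb3 are an E-box, the site bound by the clock activators and by MYC-type factors, found in 6 of the 44 windows, or 13.6%, and in 6.02% of all. The cyclic AMP element was found in 1 window of the set, that of Ldha, and the D-box, the forkhead box O site and the HNF1 site in 0. A match is a run of letters, not a measured site.

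Igfbp7 followed the labels in each library, at 60.9 to 79.7 CPM (counts relative to the library total after TMM scaling) in the wild type livers and 0.109 to 0.442 CPM where it had been deleted. Libraries held 16712568 to 22419411 gene counts. Markers of hepatocytes were abundant (7 in the files, summing to 90153 to 109797 CPM in wild type, against 98092 to 122694 CPM in knockout livers). Markers of Kupffer cells, the macrophages of the liver, had log2 fold changes below 0 for 12 of 12 genes (0 called by edgeR, 12 at an unadjusted p under 0.05, 10 called by DESeq2), with summed levels of 690 to 777 CPM in wild type, against 363 to 569 CPM in knockout livers. In bulk liver, fewer cells of a type and less RNA per cell cannot be told apart. Of 6 muscle markers Myh4 and Ckm were at 0 in all 6 libraries and the others reached at most 1.15 CPM. Of 6 pancreas markers Prss2, Cpa1, Pnlip and Ins2 were at 0, while Cela1 stood at 20.9 to 34.8 CPM. The haemoglobin genes Hbb-b1, Hbb-b2, Hba-a1 and Hba-a2 were also listed at 0, so a 0 in these files does not show that a tissue is absent. Wild type replicate 1 stood apart by its clock genes. Its clock score, 10 evening-phase genes set against 5 morning-phase genes as the difference of their mean log2 CPM, was -0.33, against 2.42 and 2.93 in the other wild type and 3.17, 3.78 and 3.55 in the knockout libraries. The carbohydrate genes made up 0.837% of the gene counts there and 1.01% to 1.104% in the other 5 libraries. Of the 31 tested genes, 13 had their lowest value in that library, against 3 to 5 in each of the others. Fold changes without it, or with the clock score as a covariate, are given for part of the genes only. Genes without such values could also move, as Pgam1 did from -0.20 to -0.40 with the clock score. The scores of the genotypes did not overlap, so a fit with this covariate cannot tell clock phase and genotype apart.

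Of the 31 tested genes, 1 passed the threshold, an adjusted p under 0.05 by edgeR's quasi-likelihood test over 12522 genes. This was Pfkfb1, which rose. Over all genes 0.216% were called, 0.128% higher and 0.0878% lower. Before adjustment, p was under 0.05 for 7 genes of the set (22.6%), with 5 higher and 2 lower, where 15.4% of all genes reached this p, 8.10% higher and 7.35% lower. The 3 knockout values lay wholly above or below the 3 wild type values in 8 (25.8%), against 20.7% of all genes, with 6 above (10.7% of all genes) and 2 below (10.1% of all genes). The totals of 22.6% and 25.8% lie near those of all genes. The higher genes alone, 5 and 6 of 31, are larger shares than the 8.10% and 10.7% of all genes. They are few, and this difference was not tested. The median log2 fold change was 0.10 (0.001 over all genes), and 21 of 31 values were above 0. The median was 0.05 with total-count scaling, 0.07 without wild type replicate 1 and -0.01 with the clock score as a covariate. DESeq2 called 4 of the set, Pfkfb1, Gckr and Gys2 higher and G6pc lower, where it called 3.64% of the genes it adjusted and 1.91% higher.

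**Figure D1:**
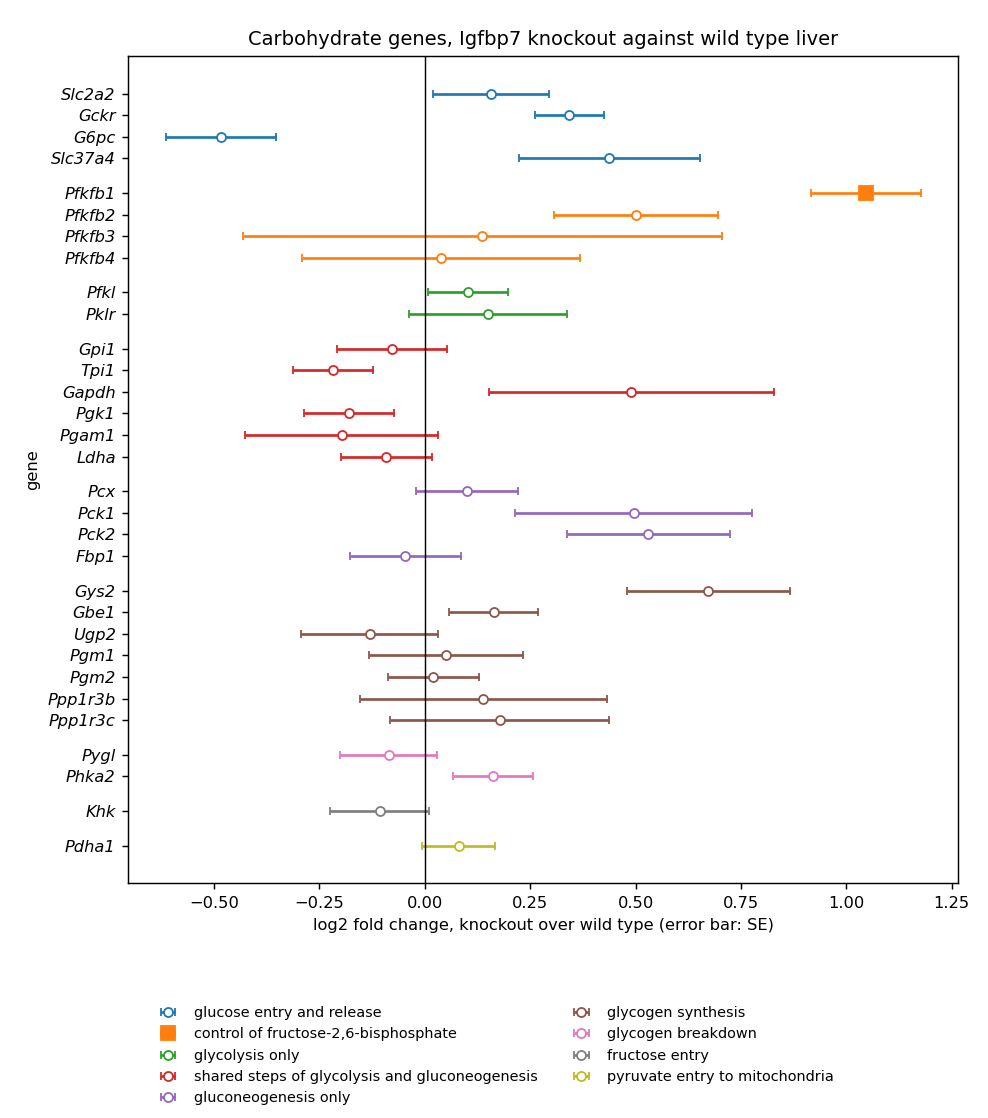
Log2 fold change of the 31 tested genes, knockout over wild type, with its standard error, coloured by role in the pathway. The filled square is Pfkfb1, at 1.05 the 1 gene past the threshold, and open circles are genes that did not pass, from -0.48 for G6pc to 0.67 for Gys2.

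Among the 4 bifunctional enzymes that set fructose-2,6-bisphosphate, Pfkfb1, the isozyme of liver and muscle, about doubled in the knockout livers. It stood at 23.1, 23.7 and 22.2 CPM in wild type replicates 1 to 3 and 39.3, 48.0 and 55.2 CPM in those of the knockout. The wild type values lay close together and the groups did not overlap. The log2 fold change was 1.05 ± 0.13 (SE), a 2.06-fold rise with an edgeR adjusted p of 0.0348. Without 1 library the log2 fold change ran from 0.92 to 1.17. Its edgeR adjusted p became 0.117, 0.138 and 0.0621 when wild type libraries 1, 2 and 3 were omitted in turn, and 0.0740 and 0.0523 when knockout libraries 2 and 3 were, so each of these omissions ended the call. Omitting knockout library 1 gave 0.0119. With the clock score as a covariate the log2 fold change was 1.03 (adjusted p = 0.381). Pfkfb1 shares 50 exon bases, 2.22% of its own, with Apex2 on the opposite strand in GENCODE M21, and Apex2 stood at 10.0 CPM in wild type, against 11.3 CPM in knockout livers.

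Pfkfb2, an isozyme found in heart, kidney and other tissues, stood at 44.97, 53.1 and 65.2 CPM in wild type, against 80.6, 56.6 and 93.7 CPM in knockout libraries. Knockout replicate 2 lay within the wild type range. Its log2 fold change was 0.50 ± 0.19 (SE), and it did not pass (edgeR adjusted p = 0.269). The value was 0.38 without wild type replicate 1 and 0.30 with the clock score. In the current annotation 24.7% of its exon bases also belong to Gm29427 on the same strand. Pfkfb3, the inducible isozyme with the strongest kinase side, stood at 26.2, 93.3 and 114 CPM in wild type, against 99.96, 30.7 and 125 CPM in knockout libraries. Wild type replicate 1 and knockout replicate 2 were low and the other 4 libraries high, so the spread ran across both genotypes. At 4.79-fold from lowest to highest library it was the widest of the set, and its log2 fold change of 0.14 ± 0.57 (SE) was -0.28 without wild type replicate 1, 0.54 without knockout replicate 2 and -0.64 with the clock score. Pfkfb4, an isozyme of testis and of tumour cells, lay between 0.701 and 1.28 CPM in all 6 libraries, and its log2 fold change of 0.04 ± 0.33 (SE) was 0.52 with the clock score.

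Set per kilobase of exon, so that isozymes can be compared, Pfkfb1 held 42.2%, 27.6% and 22.6% of the summed level of the 4 isozymes in wild type, against 33.7%, 55.6% and 37.0% in knockout libraries. These ranges overlapped, and the share of Pfkfb3 ran from 14.5% to 47.1%. The summed level was 24.3, 38.2 and 43.7 CPM per kb in wild type and 51.9, 38.4 and 66.2 CPM per kb in knockout libraries.

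**Figure D2:**
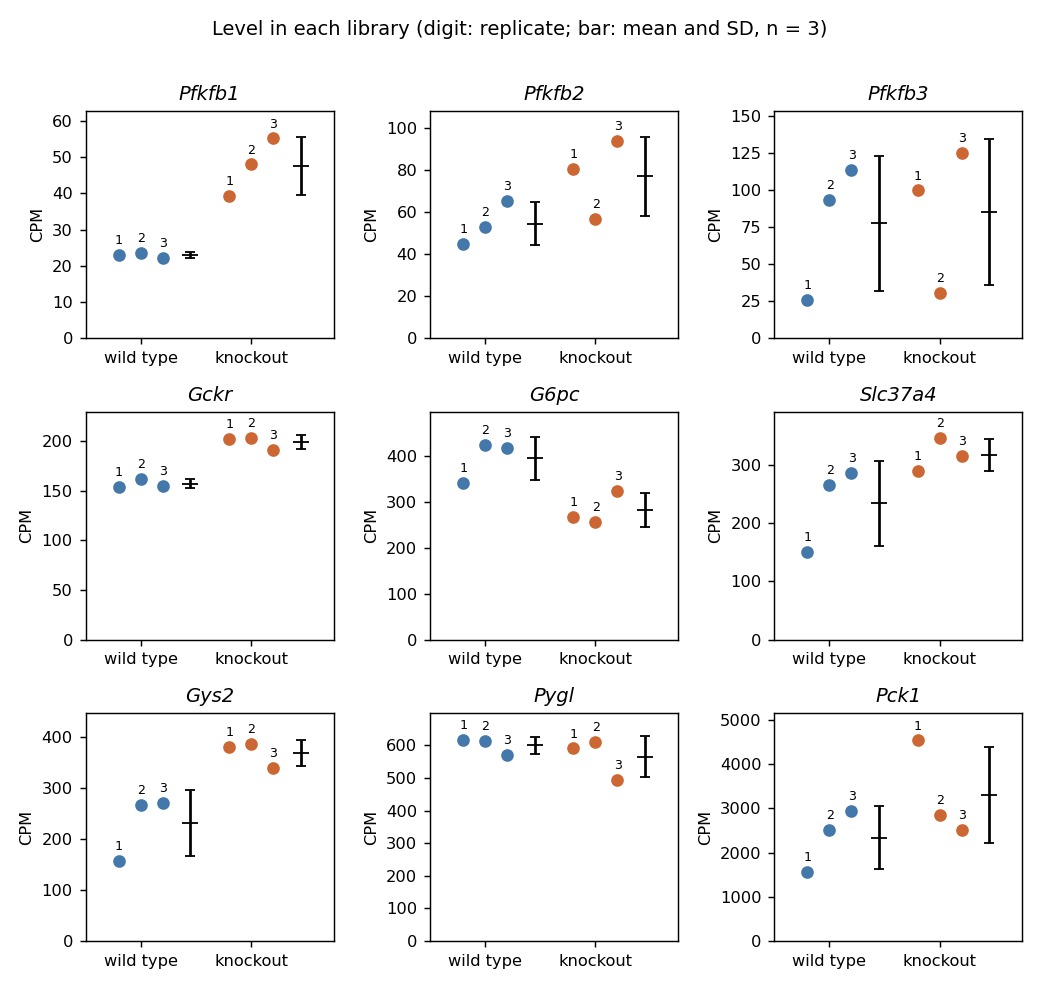
Level in CPM of 9 genes in each library, with the replicate number above each point and the group mean and SD (n = 3) as bars. Pfkfb1, Gckr, Slc37a4 and Gys2 lie higher in all 3 knockout than in all 3 wild type libraries and G6pc lower, and Pfkfb3 is low in wild type replicate 1 and knockout replicate 2.

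Of the 4 genes of glucose release and uptake, 0 were called by edgeR, DESeq2 called Gckr higher and G6pc lower, and these 2 also reached an unadjusted p under 0.05. G6pc, the catalytic subunit of glucose-6-phosphatase, which frees glucose from glucose-6-phosphate, stood at 342, 425 and 419 CPM in wild type, against 267, 257 and 324 CPM in knockout libraries. All 3 knockout values were below the lowest wild type value. This was a log2 fold change of -0.48 ± 0.13 (SE), at an adjusted p of 0.144 by edgeR and 0.0238 by DESeq2. It was -0.58 without wild type replicate 1 and -0.65 with the clock score as a covariate. Slc37a4, the transporter that carries glucose-6-phosphate to that enzyme in the endoplasmic reticulum, stood at 150.4, 265 and 285 CPM in wild type, against 289, 345 and 315 CPM in knockout libraries. The groups did not overlap, but wild type replicate 1 was far below the rest and wild type replicate 3 just under knockout replicate 1. The log2 fold change of 0.44 ± 0.21 (SE, edgeR adjusted p = 0.378) was 0.20 without wild type replicate 1 and -0.04 with the clock score.

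Gckr, a regulatory protein of hepatic glucose use, stood at 153.95, 162 and 154 CPM in wild type, against 202, 203 and 191 CPM in knockout libraries. The replicates of each genotype were close together and the groups did not overlap. Its log2 fold change was 0.34 ± 0.08 (SE), a 1.27-fold difference with an adjusted p of 0.120 by edgeR and 0.0213 by DESeq2. The value was 0.33 both without wild type replicate 1 and with the clock score. Slc2a2, the GLUT2 transporter through which glucose enters and leaves hepatocytes, stood at 334, 467 and 449 CPM in wild type, against 452, 498 and 445 CPM in knockout libraries. Wild type replicate 1 was the lowest, and the log2 fold change of 0.16 ± 0.14 (SE) was 0.02 without it and -0.10 with the clock score.

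Of the 4 genes of gluconeogenesis proper, edgeR called 0 and DESeq2 0, and 1 reached an unadjusted p under 0.05. Pck1, the cytosolic phosphoenolpyruvate carboxykinase and the highest member per kilobase of exon, stood at 1569, 2508 and 2949 CPM in wild type, against 4542, 2852 and 2514 CPM in knockout libraries. Knockout replicate 1 was the highest and wild type replicate 1 the lowest, and the other 4 libraries overlapped. The log2 fold change of 0.50 ± 0.28 (SE, edgeR adjusted p = 0.442) was 0.28 without wild type replicate 1, 0.20 without knockout replicate 1 and 0.16 with the clock score. Pck2, its mitochondrial counterpart, stood at 3.56, 4.44 and 4.44 CPM in wild type, against 7.29, 4.97 and 5.70 CPM in knockout libraries. The groups did not overlap, and the log2 fold change was 0.53 ± 0.19 (SE, edgeR adjusted p = 0.243), or 0.41 with the clock score. Fbp1, the fructose-1,6-bisphosphatase that opposes phosphofructokinase, stood at 1086 ± 169 CPM in wild type, against 1052 ± 3.17 CPM in knockout livers (SD over n = 3). Pcx, pyruvate carboxylase, which starts the route in mitochondria, stood at 567 ± 38.3 and 608 ± 74.99 CPM (SD over n = 3). For both genes the genotypes overlapped, at log2 fold changes of -0.05 ± 0.13 and 0.10 ± 0.12 (SE).

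The genes used only in the glycolytic direction overlapped between the genotypes, and 0 of 2 were called by edgeR, 0 by DESeq2 and 0 at an unadjusted p under 0.05. Pklr, the liver pyruvate kinase of the last one-way step, stood at 315, 503 and 459 CPM in wild type, against 393, 482 and 542 CPM in knockout libraries. Its log2 fold change of 0.15 ± 0.19 (SE) was -0.03 without wild type replicate 1 and -0.20 with the clock score. Hcn3 on the opposite strand covers 23.4% of its exon bases and stood at 23.9 CPM in wild type, against 40.6 CPM in knockout livers. Pfkl, the liver phosphofructokinase on which fructose-2,6-bisphosphate acts, stood at 36.4 to 39.5 CPM in wild type, against 37.6 to 42.8 CPM in knockout libraries, a log2 fold change of 0.10 ± 0.09 (SE). Khk, ketohexokinase, which brings fructose into the pathway, stood at 455 ± 35.2 and 422 ± 49.6 CPM, and Pdha1, a subunit of the pyruvate dehydrogenase complex that passes pyruvate to the citric acid cycle, at 125 ± 8.61 and 132 ± 3.49 CPM in wild type and knockout livers (SD over n = 3). The log2 fold change of Khk was -0.11 ± 0.12 (SE) and -0.20 with the clock score. That of Pdha1 was 0.08 ± 0.09 (SE), 0.02 without wild type replicate 1 and -0.01 with the clock score.

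Glycogen genes gave 0 calls by edgeR among the 7 for synthesis and the 2 for breakdown, with 1 at an unadjusted p under 0.05 and 1 called by DESeq2, the same gene in both cases. That gene was Gys2, the liver glycogen synthase, at 157, 267 and 271 CPM in wild type, against 381, 387 and 339.7 CPM in knockout libraries. All 3 knockout values lay above the highest wild type value, and wild type replicate 1 was well below the other wild type libraries. The log2 fold change was 0.67 ± 0.19 (SE), a 1.59-fold difference with an adjusted p of 0.164 by edgeR and 0.0214 by DESeq2. It was 0.46 without wild type replicate 1 and 0.27 with the clock score. Pygl, the liver glycogen phosphorylase, stood at 616, 614 and 570.1 CPM in wild type, against 591, 612 and 493 CPM in knockout libraries, and the groups overlapped at a log2 fold change of -0.09 ± 0.11 (SE). Phka2, the liver regulatory subunit of the kinase that activates phosphorylase, stood at 32.7, 32.4 and 30.2 CPM in wild type, against 34.8, 38.2 and 33.7 CPM in knockout libraries. These groups did not overlap, though their nearest values were close, and the log2 fold change was 0.16 ± 0.09 (SE, edgeR adjusted p = 0.456).

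Gbe1, the branching enzyme, stood at 149 ± 19.0 and 167 ± 2.21 CPM and Ugp2, which makes the UDP-glucose that glycogen synthase uses, at 528 ± 94.9 and 482 ± 73.3 CPM in wild type and knockout livers (SD over n = 3). The log2 fold change of Gbe1 was 0.16 ± 0.11 (SE), 0.08 without wild type replicate 1 and 0.03 with the clock score. That of Ugp2 was -0.13 ± 0.16 (SE), -0.27 without that library and -0.41 with the clock score. The phosphoglucomutases carry the symbols of the older nomenclature. Pgm2 in the files is the gene now called Pgm1, the main phosphoglucomutase, at 265 ± 26.8 and 269 ± 19.1 CPM, and Pgm1 in the files is now Pgm2, at 5.81 ± 0.807 and 6.00 ± 1.04 CPM (SD over n = 3). The regulatory subunits that bring protein phosphatase to glycogen varied among libraries of the same genotype. Ppp1r3b, the liver subunit, stood at 370.1, 272 and 287 CPM in wild type, against 274, 219.7 and 529 CPM in knockout libraries, and its log2 fold change of 0.14 ± 0.29 (SE) was -0.32 without knockout replicate 3 and 0.38 with the clock score. Ppp1r3c, a subunit of wider expression, stood at 56.3, 49.8 and 94.7 CPM in wild type, against 90.5, 82.3 and 54.2 CPM in knockout libraries, and its log2 fold change of 0.18 ± 0.26 (SE) was -0.002 without wild type replicate 2 and -0.05 with the clock score.

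**Figure D3:**
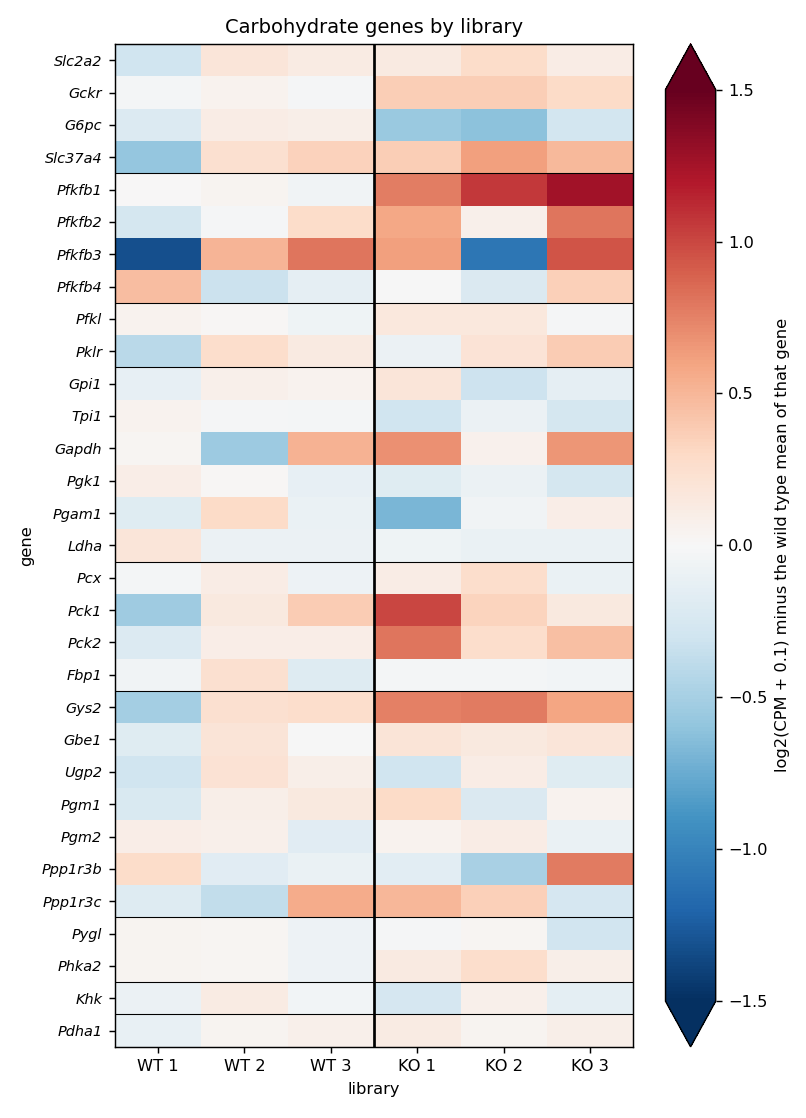
Each tested gene in each library as log2(CPM + 0.1) minus that gene's wild type mean, with rows grouped by role and the colour scale limited at 1.5 on either side. Gckr is even within each genotype, whereas Pfkfb3, Pck1, Gys2 and Slc37a4 are low in wild type replicate 1.

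The 7 enzymes shared by both directions gave 0 calls by edgeR and 0 by DESeq2 over the 6 tested, and 1 reached an unadjusted p under 0.05. That was Tpi1, triosephosphate isomerase, at 288, 275 and 272 CPM in wild type, against 226, 262 and 231 CPM in knockout libraries. The groups did not overlap, and the log2 fold change was -0.22 ± 0.09 (SE, edgeR adjusted p = 0.320). Ldha, the lactate dehydrogenase subunit that links pyruvate and lactate, stood at 604, 502 and 504 CPM in wild type, against 512, 501 and 498 CPM in knockout libraries. Apart from the higher wild type replicate 1 the libraries were nearly level, and the log2 fold change of -0.09 ± 0.11 (SE) was 0.07 with the clock score. Gpi1, glucose-6-phosphate isomerase, stood at 104 ± 7.83 and 98.4 ± 17.4 CPM (SD over n = 3).

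The other 4 shared enzymes were not read as levels. Gapdh, known as one of the most abundant transcripts of most tissues, held 16 to 40 counts per library, or 0.748 to 1.89 CPM, and Eno1, enolase, held 6 to 16 counts, too few for the filter. Pgk1 stood at 15.8 to 20.3 CPM and Pgam1 at 4.45 to 8.84 CPM. In GENCODE M21 transcripts, 58.4% of the stretches of 50 bases of Gapdh also occur in another gene outside its locus, in 222 genes of which 213 are annotated pseudogenes. The same held for 68.0% of Pgk1, 49.5% of Eno1 and 41.5% of Pgam1, against 19.0% of Gpi1, 10.4% of Ldha, 6.83% of Tpi1 and at most 1.79% of each of the other 25 genes. Reads placed at several positions are listed apart from the genes in the count files, and exact stretches understate what an aligner that tolerates mismatches treats as shared. The log2 fold changes were -0.18 ± 0.11 for Pgk1, -0.20 ± 0.23 for Pgam1 and 0.49 ± 0.34 for Gapdh (SE), and were not past the threshold. How far shared sequence bears on these counts was not tested. Pgk1, with the highest share, stood at 10.4 CPM per kb in wild type, against 0.647 for Gapdh and 0.132 for Eno1.

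**Figure D4:**
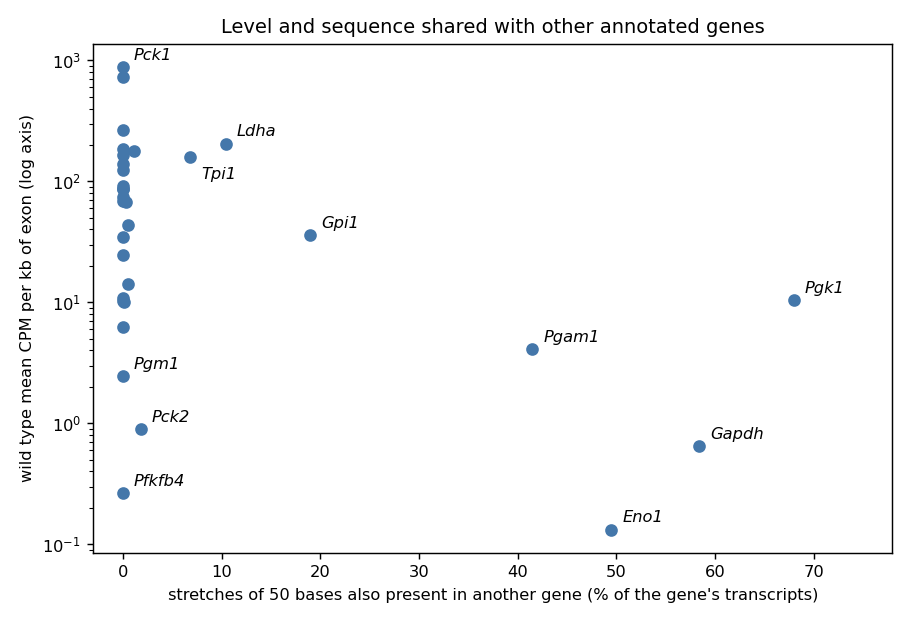
For each of the 32 genes, the percentage of its 50-base transcript stretches found in another annotated gene (horizontal) against its wild type mean level in CPM per kb of exon (vertical, log axis). Gapdh, Eno1, Pgk1 and Pgam1 have the 4 highest shares, from 41.5% to 68.0%, and Eno1 and Gapdh are among the 3 lowest levels.

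By level per kilobase of exon in wild type liver, leaving out Gapdh, Eno1, Pgk1 and Pgam1, the gluconeogenic genes Pck1 and Fbp1 were highest. Pck1 stood at 880.2 and Fbp1 at 734 CPM per kb, followed by Khk at 265, Ldha at 205, Ugp2 at 184, Pygl at 179.5 and G6pc at 164 CPM per kb. Among the regulators Gckr stood at 69.0 and Ppp1r3b at 68.1 CPM per kb, and lower levels were found for Pfkfb3 at 14.1, Pfkfb2 at 10.8, Pfkfb1 at 10.2 and Phka2 at 6.29 CPM per kb, and Pck2 at 0.896 CPM per kb. The order of Ugp2 and Pygl is not fixed by these data, since Ugp2 varied by an SD of 94.9 around a mean of 528 CPM before division by length (n = 3). Gene lengths are from GRCm38 models and not from the annotation used for counting, so these levels are approximate.

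Of 23 tested further enzymes of glycolysis and gluconeogenesis, edgeR called 0 and DESeq2 1 lower, with 1 higher and 6 lower at a p below 0.05 before adjustment and a median log2 fold change of -0.04. The 3 with the lowest p are isozymes known from cells other than hepatocytes. Hk1, a hexokinase, stood at 5.55 and 3.23 CPM, the pyruvate kinase gene Pkm2 at 12.1 and 8.94 CPM and the hexokinase Hk3 at 6.63 and 4.53 CPM in wild type and knockout livers, with edgeR adjusted p of 0.113, 0.167 and 0.186. Markers of some other cell types lay below 0 in the same comparison, 12 of 12 for macrophages at a median log2 fold change of -0.71. So did 5 of 5 tested for T and NK cells at -0.45, 4 of 4 for B cells at -0.64 and 5 of 5 for bile duct cells at -0.44. The T and NK cell and the B cell markers summed to at most 7.81 and 4.47 CPM in wild type. Of the bile duct markers 1 reached an unadjusted p under 0.05, Spp1, at 85.1 CPM in wild type, against 48.1 CPM in knockout livers. The others had wild type means of at most 3.92 CPM, and with the clock score 4 of 5 bile duct markers were below 0. Liver endothelial markers were 4 higher and 4 lower at a median of -0.006, and stellate markers 3 higher and 5 lower at -0.06. The part of these cell types in the values of Hk1, Pkm2 and Hk3 was not tested. Of 22 tested further glycogen genes, edgeR and DESeq2 called 0, with 3 higher and 2 lower at a p before adjustment below 0.05. Pygb, the brain phosphorylase, was at -0.47 ± 0.14 (SE) on the log2 scale. Pgm2l1 was at 0.56 ± 0.20 (SE).

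The 12 tested genes for pyruvate entry into mitochondria gave 0 calls by edgeR, 1 higher by DESeq2, 5 higher and 0 lower at a p before adjustment below 0.05, and a median of 0.14. Pdpr, the regulatory subunit of pyruvate dehydrogenase phosphatase, stood at 16.3 CPM in wild type, against 22.1 CPM in knockout livers (edgeR adjusted p = 0.101). Pdp2, a catalytic subunit of that phosphatase, was at 0.54 ± 0.18 (SE) and Pdk1, a kinase that opposes it, at 0.41 ± 0.14 (SE). All 10 genes of the pentose phosphate pathway were below 0, at a median of -0.17, with 0 called by edgeR or DESeq2 and 1 at an unadjusted p under 0.05, Pgd at -0.45 ± 0.16 (SE). The sign held for 10 of 10 under each scaling tried and without wild type replicate 1, and for 9 with the clock score. The 12 tested genes of other hexose entry had a median of 0.05, with 0 called by edgeR, 1 lower by DESeq2 and 2 higher and 1 lower at a p before adjustment below 0.05. Slc2a1, the GLUT1 transporter, was at 0.49 ± 0.17 (SE).

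Of 30 tested hormonal and transcriptional regulators of glucose output, 24 had values above 0, at a median of 0.19, and 21 did with total-count scaling. The median was 0.12 without wild type replicate 1 and 0.10 with the clock score, when 20 of 30 were above 0. EdgeR called 0, DESeq2 2 higher, and 7 were higher and 0 lower at a p before adjustment below 0.05. Gcgr, the glucagon receptor, stood at 294 and 369 CPM in wild type and knockout livers, Mlxipl, the glucose-responsive factor ChREBP, at 274 and 381 CPM, and Sik1, a kinase induced by cyclic AMP that restrains gluconeogenic genes, at 10.9 and 17.9 CPM. Their edgeR adjusted p were 0.175, 0.175 and 0.166, and for each the groups did not overlap.

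Genes that mark feeding, glucocorticoid exposure and the clock are set beside these values, since the state of the animals is not given. Of 13 genes known to rise with fasting, 11 were above 0 at a median of 0.25 (8 of 13 without wild type replicate 1), with 0 called by edgeR, 1 higher by DESeq2, and 2 higher at an unadjusted p under 0.05. The lowest p belonged to Cpt1a, which admits fatty acids to mitochondria, at 0.48 ± 0.12 (SE). Next came Cyp4a14 at 3.08 ± 0.99 (SE) and, below 0, Cdkn1a at -1.28 ± 0.57 (SE). Cyp4a14 stood at 76.7, 11.7 and 329 CPM in knockout libraries, against 8.88 to 28.9 CPM in wild type. Cdkn1a stood at 12.5 CPM in wild type replicate 1, against 4.12 and 2.54 CPM in wild type replicates 2 and 3. The 11 genes known to rise with feeding had a median of -0.08, with 0 called by edgeR, 1 higher by DESeq2 and 1 higher at an unadjusted p under 0.05. Their mean log2 CPM was 7.55 to 7.62 in wild type and 7.56, 7.18 and 8.13 in knockout libraries 1 to 3, so knockout replicates 2 and 3 lay on either side of the wild type livers. Of 10 genes that respond to glucocorticoids, 7 were above 0 and 3 below, at a median of 0.52. EdgeR called 1 higher, Serpina6, which is also the blood carrier of these hormones. DESeq2 called 3 higher, and 4 were higher at an unadjusted p under 0.05. The list was not split into genes raised and genes lowered by these hormones, so no direction of exposure is read from it. Fkbp5 stood at 26.5, 46.0 and 77.7 CPM in wild type, against 179, 186 and 255 CPM in knockout libraries (edgeR adjusted p = 0.0596). All 10 evening-phase clock genes were above 0, at a median of 0.84 that was 0.55 without wild type replicate 1, with 0 called by edgeR or DESeq2 and 6 at an unadjusted p under 0.05. The part of feeding and glucocorticoids in the values of the carbohydrate genes was not tested, and that of the clock cannot be told apart from genotype. Genes of the periportal zone, where gluconeogenesis is concentrated, had a median of -0.02 over 10 genes, and those of the pericentral zone, where glycolysis is, 0.10 over 10. EdgeR called 0 of either, DESeq2 3 pericentral genes higher, and 1 periportal gene was lower and 4 pericentral genes higher before adjustment.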

How the data were processed

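RNA of 6 liver libraries had been sequenced by the authors, and the values they deposited are unnormalized counts of reads for each gene. Tools listed in the submitters' processing notes were TopHat2 2.0.8b, HTSeq and CASAVA 1.8.2, with the builds mm9 and hg19 and no role or order for any. The sources used here do not give the annotation or strand setting. Rows that name no gene were left out (outside genes, 9.65% to 12.5% of uniquely placed reads, and fitting several genes, 0.594% to 0.662%). Genes were kept by filterByExpr (minimum count 10), scaled by TMM and tested with edgeR 4.0.16 (R 4.3.3, quasi-likelihood, genotype as the only term, 2-sided, Benjamini-Hochberg over 12522 genes, threshold 0.05). SE was derived from the F statistic. Alternatives used DESeq2 1.42.0 and limma 3.58.1 (voom). The scripts were tested on simulated data. Gene lengths and shared stretches came from GENCODE M21 (GRCm38), promoters from RefSeq GRCm38.p6. All members could be named, others by lowest p, at most 3 per list; some results are not reported here. The members, lists and alternatives were chosen with earlier results of these data known, and the motifs after seeing the data.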

Additional observations from a re-analysis of the deposited data

How the results depend on the processing

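Pfkfb1 kept its direction in all 16 alternatives, at log2 fold changes of 0.92 to 1.17, and passed the threshold in 7 of them (adjusted p 7.83e-09 to 0.381). The count of called genes in the set, 1 of 31, was 0 with total-count scaling (Pfkfb1 adjusted p = 0.0514), with the replicate block (0.0738), with the clock score as a covariate (0.381) and without both wild type replicate 1 and knockout replicate 2 (0.204). It was 4 with DESeq2 and 0 to 1 with 1 library left out. Over all genes the count of 27 was 133 without a filter, 438 with DESeq2, 1 with the replicate block, 1 with the clock score, 1 without those 2 libraries together and 3 to 36 with 1 library left out (5 and 4 without wild type libraries 1 and 2, 3 and 13 without knockout libraries 2 and 3). The split of calls moved from 16 higher and 11 lower to 10 higher and 11 lower with total-count scaling. Of the other genes in the set, Gckr, G6pc and Gys2 passed with DESeq2 and 0 passed in any other alternative, and no called value changed sign. The labels name no pairing of the samples. The deviations of same-numbered libraries correlated at -0.08, -0.10 and -0.04, and those of differently numbered libraries at -0.05 to 0.12. Such values cannot exclude a pairing, since deviations from a group mean balance around 0. The causes of these changes were not tested. Eno1, Pfkfb4 and Gapdh rest on 6 to 40 counts a library, which limits their precision.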

Other observations

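Ratios of paired steps within a library, chosen after their values were seen, are given as values. G6pc over Slc37a4 was 2.27, 1.60 and 1.47 in wild type, against 0.922, 0.744 and 1.03 in knockout libraries 1 to 3, without overlap (exact permutation p = 0.10, 2-sided, the smallest that 3 against 3 allows). Gys2 over Pygl was 0.255, 0.434 and 0.475 in wild type, against 0.645, 0.632 and 0.689 in knockout libraries, also without overlap (exact permutation p = 0.10). Pfkfb1 over Pfkl was 0.585, 0.612 and 0.611 in wild type, against 0.919, 1.13 and 1.47 in knockout libraries (exact permutation p = 0.10). G6pc over Pck1, whose products act at the end and the start of gluconeogenesis, was 0.218, 0.169 and 0.142 in wild type, against 0.0587, 0.0900 and 0.129 in knockout libraries, without overlap (exact permutation p = 0.10). Pfkfb2 over Pfkl overlapped between the genotypes (exact permutation p = 0.30). These were all 5 ratios computed, and at a smallest possible p of 0.10 none can pass 0.05, before or after adjustment. Since the ratios were chosen after their values were seen, these p-values do not test a difference between the genotypes.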
